A study of Mus musculus with 35 samples.

Results

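Notch signaling lets a cell read a ligand on its neighbour. The ligand binds a Notch receptor, the receptor is cleaved, and its intracellular part enters the nucleus and joins the DNA-binding protein Rbpj, which then turns on genes of the Hes and Hey families. Without the intracellular part, Rbpj sits in repressor complexes on the same genes. In the lung, endothelial cells express Notch1, Notch4 and the ligand Dll4, and pericytes and smooth muscle cells of the vessel wall express Notch3 and Heyl.

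10 genes of this pathway were followed among the 54532 genes of the deposited tables, chosen by symbol. They are the transcription factor Rbpj, the receptors Notch1, Notch3 and Notch4, the ligands Dll4 and Jag1, and the targets Hes1, Hey1, Hey2 and Heyl. All 10 passed the filter on low counts in every comparison. The question was whether the lower Rbpj level of Cav1-KO lungs was accompanied by changes of the ligands, receptors and targets.

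The RNA came from whole lungs of 34 adult mice in 12 groups, 3 genotypes in both sexes at room air (normoxia) or after 6 weeks at 10% oxygen (hypoxia), with 3 mice a group except for 2 in each of the normoxic female groups Cav1-KO and Cav1-RC. Control mice were wild-type B6/129SJ2, a mixed background. Cav1-KO mice lacked caveolin-1, the coat protein of caveolae, in every cell, and Cav1-RC mice were knockouts in which caveolin-1 had been put back in endothelial cells. According to the methods, Control and Cav1-KO mice were first bought from a supplier, and Cav1-RC mice came from another laboratory. The promoter and the form of the reconstituted gene are not given in the sources used here.

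The targeted gene was checked first. Cav1 stood between 977 and 1361 CPM (a gene's counts divided by the library total and scaled up, with TMM factors) in the 12 Control libraries and between 1.62 and 3.93 CPM in the 11 Cav1-KO libraries. In the 11 libraries labelled Cav1-RC it stood between 1.48 and 6.48 CPM, inside or near the Cav1-KO range, so counts on mouse Cav1 do not show the reconstitution and the genotype rests on the label. Library totals ranged from 12425535 to 33343006 counts. 3 libraries labelled male, 2 of normoxic Cav1-RC and 1 of hypoxic Control (replicate 2), had Xist at the level of female libraries, and results that use them follow the labels.

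12 of the 34 libraries came from animals that the study's supplement lists for its western blots, and these stood apart from the other 22 on the first principal component, which held 29.6% of the variance. All hypoxic Cav1-KO libraries and all male hypoxic Control libraries were on that list. No male normoxic library and no hypoxic library labelled Cav1-RC was on it. What set these animals apart is not given in the sources used here, and results that cannot be told apart from the list are marked as such. Listed and unlisted animals occurred together only in normoxic female Control, normoxic female Cav1-RC and hypoxic female Control, with 1 listed animal each. A term for the list in a fit rests on these groups alone, and for males and Cav1-KO it carries their estimate over.

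Levels between genes were compared in FPKM, which divides by gene length. Over all 34 libraries Hes1, a repressor with a basic helix-loop-helix domain, had the highest median level at 49.9 FPKM, followed by its relative Hey1 at 31.05 FPKM. Dll4 and Notch4 came next at medians of 25.2 and 24.8 FPKM, and Notch3, Jag1, Notch1 and Heyl at 17.2, 12.8, 10.5 and 8.599 FPKM. Rbpj had a median of 4.39 FPKM and Hey2 the lowest, 1.42 FPKM. The order differed by group, and in normoxic female Cav1-KO the means of Hey1 (42.5 FPKM) and Dll4 (41.6 FPKM) were above that of Hes1 (39.3 FPKM). The ranges over libraries of neighbours in this order overlapped, for example 8.33 to 48.0 FPKM for Dll4 and 14.6 to 35.9 FPKM for Notch4, except that the lowest Heyl value, 6.04 FPKM, was just above the highest Rbpj value, 6.03 FPKM. In mm10 Notch1, Dll4 and Jag1 lie on chromosome 2 from 26457903, 119325784 and 137081456, Notch3 and Notch4 on chromosome 17 from 32120820 and 34564268, Hes1 on chromosome 16 from 30064384, Hey1 on chromosome 3 from 8663359, Hey2 on chromosome 10 from 30832359 and Heyl on chromosome 4 from 123233556.

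Rbpj (ENSMUSG00000039191) lies on chromosome 5 from 53466152 to 53657362 in mm10, on the plus strand. Its mRNA was lower in Cav1-KO lungs. In normoxia it stood at 54.1, 58.9 and 74.6 CPM in female Control and at 31.1 and 30.8 CPM in female Cav1-KO libraries. Male Control libraries held 74.7, 67.9 and 62.7 CPM, and male Cav1-KO libraries 32.2, 32.2 and 32.3 CPM. The groups did not overlap in either sex.

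Hypoxic female Control libraries held 51.0, 72.2 and 69.5 CPM of Rbpj, against 29.8, 26.5 and 29.1 CPM in female Cav1-KO. In hypoxic males the values were 51.5, 46.7 and 50.2 CPM in Control and 29.1, 31.2 and 29.8 CPM in Cav1-KO. Every Cav1-KO library, at 26.5 to 32.3 CPM, was below every Control library, at 46.7 to 74.7 CPM. Since these are whole lungs, fewer cells that express a gene and less RNA per cell cannot be told apart, here and in every result below.

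**Figure D1:**
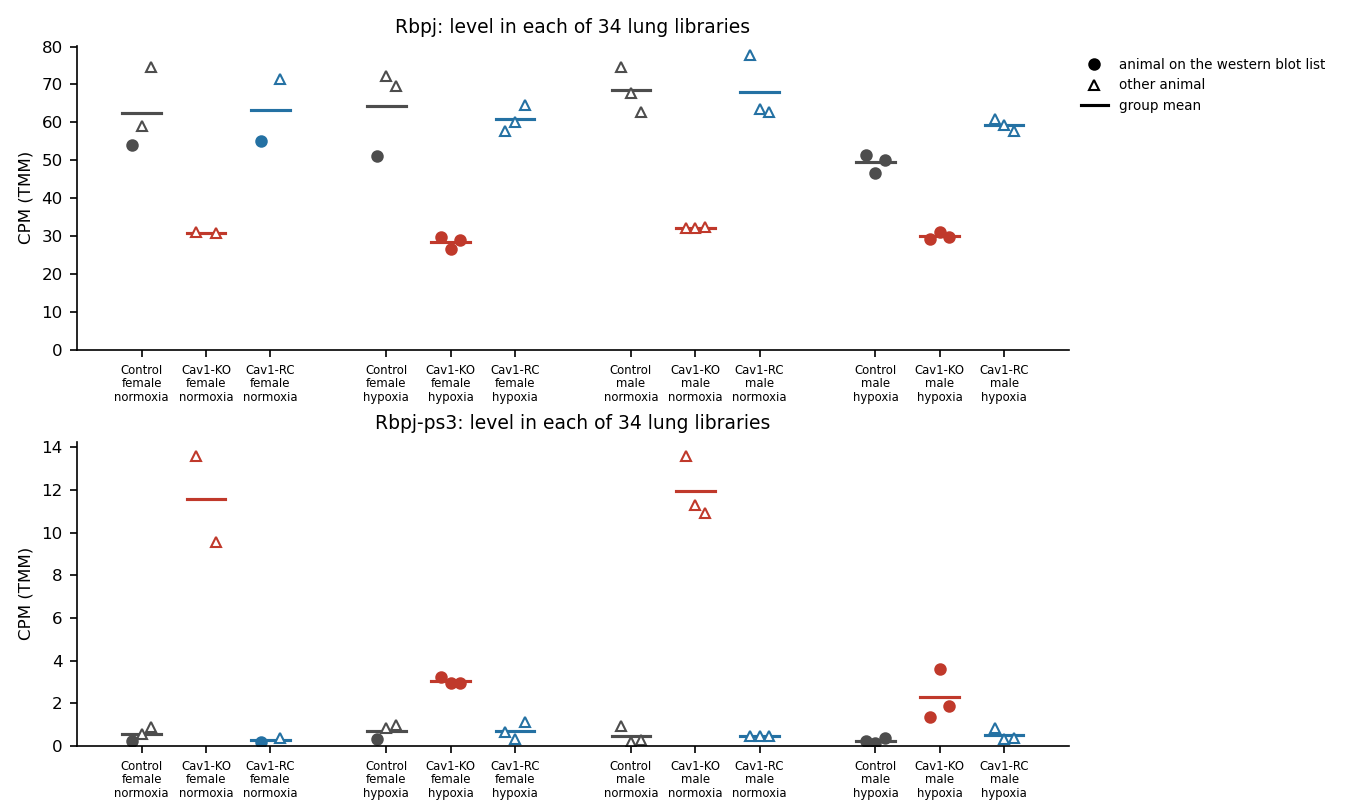
Levels of Rbpj (upper panel) and of its processed pseudogene Rbpj-ps3 (lower panel) in CPM on linear axes, with 1 point for each of 34 libraries in 12 groups; lines are group means, filled circles are animals on the western blot list and open triangles are the others. All 11 Cav1-KO libraries lie at 26.5 to 32.3 CPM of Rbpj, below the other 23, and at 1.36 to 13.6 CPM of Rbpj-ps3.

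With both sexes in one edgeR quasi-likelihood fit, Rbpj was lower in Cav1-KO than in Control by a log2 fold change of -1.07 ± 0.10 (SE) in normoxia, with 6 Control and 5 Cav1-KO libraries (Benjamini-Hochberg adjusted p = 0.000129), and -0.95 ± 0.10 in hypoxia, with 6 against 6 (adjusted p = 0.000277). By sex, the log2 fold change was -1.11 in normoxic males (adjusted p = 0.00102), -0.72 in hypoxic males (adjusted p = 0.0187) and -1.18 in hypoxic females (adjusted p = 0.0349), where Rbpj alone passed against 0.808% of all genes. In hypoxic males and females 4 and 5 of the 6 libraries, left out in turn, took the adjusted p above 0.05, to at most 0.108 and 0.196, with log2 fold changes from -0.75 to -0.69 and from -1.32 to -1.11. Without the hypoxic Control male whose Xist went against the label, the value in hypoxic males was -0.75 (adjusted p = 0.00957). In normoxic females it was -1.04 with an adjusted p of 0.158 in edgeR, where 0 of 10 members passed, 2 had an unadjusted p under 0.05, DESeq2 called 1 and 0.122% of all genes passed. Without the 1 Control female there that was on the western blot list, it was -1.13 (adjusted p = 0.00984). In males, where the list cannot differ between genotypes at either oxygen level, the difference was present both among unlisted and among listed animals. In hypoxic females all 3 Cav1-KO and 1 of 3 Control libraries were listed, so list and genotype went partly together there. The listed Control held 51.0 CPM of Rbpj and the others 72.2 and 69.5 CPM.

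The libraries labelled Cav1-RC held Rbpj at 55.1 and 71.4 CPM in normoxic females, 77.7, 63.6 and 62.6 CPM in normoxic males, 57.7, 60.1 and 64.6 CPM in hypoxic females and 60.9, 59.2 and 57.9 CPM in hypoxic males. All were above every Cav1-KO library. Against Cav1-KO the log2 fold change of Rbpj was 1.07 ± 0.09 in normoxia (adjusted p = 9.58e-05) and 1.05 ± 0.06 in hypoxia (adjusted p = 4.89e-07). With counts on pseudogenes of Rbpj added, these values were 0.62 (adjusted p = 0.00314) and 0.94 (adjusted p = 1.66e-06). All 6 hypoxic Cav1-KO and none of the 6 hypoxic Cav1-RC libraries were on the western blot list, so the hypoxic value cannot be told apart from it, and with a term for the list it was 0.65 (adjusted p = 0.000443). Against Control it was 0.00 ± 0.12 in normoxia (adjusted p = 0.997) and 0.11 ± 0.09 in hypoxia (adjusted p = 0.433), with intervals of 2 SE on either side from -0.25 to 0.25 and from -0.07 to 0.29.

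Counts that belong to Rbpj can be split with a near-identical copy. Rbpj-ps3, a processed pseudogene of 1441 bases on chromosome 6 (46529354 to 46530794, minus strand, GRCm38), aligned over its whole length to bases 274 to 1714 of the transcript Rbpj-201 (GENCODE M21), all within the coding sequence, with 99.722% identity and no gap. It differs by 4 substitutions, T583C, C1222A, G1225A and A1361C, with positions counted from 1 at the first base of Rbpj-201 and the Rbpj base given first. These 4 bases, in exons 5, 9 and 10 of Rbpj, are the letters by which a read from the shared stretch can be assigned, and they are the capitals below.
Rbpj, bases 568 to 598: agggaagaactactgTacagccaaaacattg
Rbpj-ps3, same stretch: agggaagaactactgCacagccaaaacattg
Rbpj, bases 1207 to 1240: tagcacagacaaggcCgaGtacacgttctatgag
Rbpj-ps3, same stretch: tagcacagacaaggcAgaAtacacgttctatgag
Rbpj, bases 1346 to 1376: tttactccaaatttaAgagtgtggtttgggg
Rbpj-ps3, same stretch: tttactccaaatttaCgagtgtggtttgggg

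Rbpj-ps3 went the other way from Rbpj in Cav1-KO lungs. It stood at 13.6 and 9.56 CPM in normoxic female and 13.6, 11.3 and 10.9 CPM in normoxic male Cav1-KO libraries, and at 1.36 to 3.58 CPM in the 6 hypoxic ones. The 12 Control libraries held 0.157 to 0.979 CPM and the 11 labelled Cav1-RC held 0.203 to 1.13 CPM, overlapping ranges. Every Cav1-KO library was above all of these.

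In Cav1-KO against Control the log2 fold change of Rbpj-ps3 was 4.48 ± 0.37 in normoxia (adjusted p = 6.47e-05) and 2.60 ± 0.36 in hypoxia (adjusted p = 0.0021). Of the counts on Rbpj and Rbpj-ps3 together, the pseudogene took 23.7% to 30.5% in normoxic and 4.46% to 10.3% in hypoxic Cav1-KO libraries, and 0.243% to 1.72% in the other 23. Every hypoxic and no normoxic Cav1-KO library was on the western blot list, so differences of Rbpj-ps3 between oxygen levels cannot be told apart from the list. With the counts of Rbpj and its pseudogenes added up, the log2 fold change in Cav1-KO against Control was -0.63 ± 0.10 in normoxia (adjusted p = 0.00308) in place of -1.07, and -0.83 in hypoxia (adjusted p = 0.000841). Reads that lie wholly between the differing bases cannot be assigned to either. Rbpj-ps1, a second pseudogene with 87.945% identity, had 0 counts in all 34 libraries, where 3 counts are taken as the floor.

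Genes near Rbpj were counted as well. Of 31 genes whose start lies within 1 Mb of that of Rbpj, 16 were tested in Cav1-KO against Control in normoxia. None passed in edgeR, against 13.2% of all genes, with 2 at an unadjusted p under 0.05 and none called by DESeq2. The 3 with the smallest adjusted p were the lincRNA Gm45495 (log2 fold change -0.50, adjusted p = 0.0808), Slc34a2, a phosphate transporter (0.64, adjusted p = 0.132), and Lgi2 (0.31, adjusted p = 0.201). In hypoxia 16 were tested, 1 was higher and 2 were lower in edgeR, against 14.7% of all genes, with 6 at an unadjusted p under 0.05 and 4 called by DESeq2.

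The 5 genes whose log2 CPM was most like that of Rbpj over the 34 libraries, by Pearson correlation among 19869 genes, were Gm26510 (r = 0.92), Hykk (0.92), AC151284.2 (0.92), Nxpe4 (0.91) and Gm33248 (0.91). They lie on chromosomes 17, 9 and 7. The points share the 3 genotypes, and each of the 5 was lower in Cav1-KO. Hykk, a kinase of hydroxylysine, held 4.70 to 8.17 CPM in Cav1-KO and 10.8 to 18.8 CPM in Control libraries. In Cav1-KO against Control in normoxia its log2 fold change was -1.25. For the others it was larger, from -2.79 (Gm33248) to -6.84 (Gm26510). Nxpe4 held 1.00 to 2.62 CPM in Cav1-KO, 19.4 to 52.3 CPM in Control and 20.5 to 69.0 CPM in libraries labelled Cav1-RC.

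No other pathway member was called lower together with Rbpj in normoxia. In Cav1-KO against Control with both sexes, 2 of the 10 members passed, against 13.2% of the 18540 genes tested, and the second was Heyl, which was higher. The median log2 fold change of the 10 was 0.27, beside -0.03 over all genes. At the thresholds of the study, which also ask for an absolute log2 fold change above 1, Rbpj alone passed, against 5.78% of all genes. With pseudogene counts added it stood at -0.63 and did not reach that fold. By sex the summed value was -0.66 in normoxic males (adjusted p = 0.00573) and -0.60 in normoxic females (adjusted p = 0.349).

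Heyl, a Hey-family repressor and Notch3 target of the vessel wall, held 44.2, 36.7 and 44.5 CPM in normoxic female Control and 67.6 and 55.4 CPM in female Cav1-KO libraries. In normoxic males it held 37.8, 31.2 and 35.4 CPM in Control and 64.2, 59.4 and 54.7 CPM in Cav1-KO. The genotypes did not overlap in either sex. The log2 fold change was 0.64 ± 0.10 over both sexes (adjusted p = 0.00214) and 0.75 ± 0.11 in males (adjusted p = 0.00563), and 0.53 ± 0.19 in females, which did not pass (adjusted p = 0.363).

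The receptors did not pass over both sexes in normoxia. Notch1, a receptor of endothelial cells among many others, ranged from 48.7 to 262 CPM in Control and from 202 to 253 CPM in Cav1-KO libraries (log2 fold change 0.57 ± 0.32, adjusted p = 0.243). Notch4, largely an endothelial receptor, ranged from 140.2 to 239 CPM and from 223.5 to 296 CPM (0.39 ± 0.14, adjusted p = 0.0929). For Notch3, the receptor of vascular smooth muscle and pericytes, the difference was 0.19 ± 0.16 (adjusted p = 0.449).

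In normoxic males alone Notch1 held 192, 132 and 148 CPM in Control and 238, 245 and 202 CPM in Cav1-KO (log2 fold change 0.52, adjusted p = 0.0694). Notch4 held 239, 140.2 and 188 CPM against 268, 255 and 258 CPM (0.44, adjusted p = 0.154). Neither pair of ranges overlapped, and neither passed. Over both sexes Notch1 passed with the list term (0.46, adjusted p = 0.0329) and without female Control replicate 3 (0.90, adjusted p = 0.0265). Notch4 passed without that library or without male Control replicate 1, with an adjusted p of at least 0.0215.

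Dll4, the ligand of arterial and sprouting endothelium, differed in males, with 123, 103 and 132 CPM in normoxic Control and 188, 175 and 173 CPM in Cav1-KO. These did not overlap, and the log2 fold change was 0.56 ± 0.11 (adjusted p = 0.0184), where 3 of 10 members and 11.4% of all genes passed. Leaving out any 1 of the 3 Cav1-KO males took its adjusted p above 0.05, to at most 0.0954. In females Dll4 held 185, 150.3 and 149 CPM in Control and 178 and 149 CPM in Cav1-KO, overlapping ranges with a log2 fold change of -0.01 ± 0.20 (adjusted p = 0.987). The sex difference of the genotype effect did not pass for Dll4 (female minus male -0.56 ± 0.21, adjusted p = 0.999) or for any other member in normoxia or hypoxia, where 1 and 3 members had an unadjusted p under 0.05, DESeq2 called none, and edgeR called 0% of all genes, with 650 and 3077 genes at an unadjusted p under 0.05.

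Hes1, the most widely expressed Notch target, ranged from 67.5 to 115 CPM in normoxic Control and from 77.8 to 104 CPM in Cav1-KO libraries. The ranges overlapped and the log2 fold change was -0.09 ± 0.15 (adjusted p = 0.706), with 2 SE on either side reaching from -0.39 to 0.21. Hey1, the corresponding target in endothelium, had a difference of 0.26 ± 0.14 (adjusted p = 0.226) and Hey2, which marks arterial endothelium, one of 0.32 ± 0.24 (adjusted p = 0.374). Jag1, a ligand of endothelium and smooth muscle, had one of -0.04 ± 0.12 (adjusted p = 0.819). In normoxic males alone Hey1 was at 85.6 to 120.4 CPM in Control and 129 to 149 CPM in Cav1-KO (0.43, adjusted p = 0.0812), and Jag1 at 74.7 to 84.6 and 64.7 to 74.6 CPM (-0.25, adjusted p = 0.118), without overlap. Without the 1 listed Control female, Dll4 (0.34, adjusted p = 0.0251) and Hey1 (0.39, adjusted p = 0.0266) passed as well, both higher in Cav1-KO, and the value of Hes1 was 0.02.

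**Figure D2:**
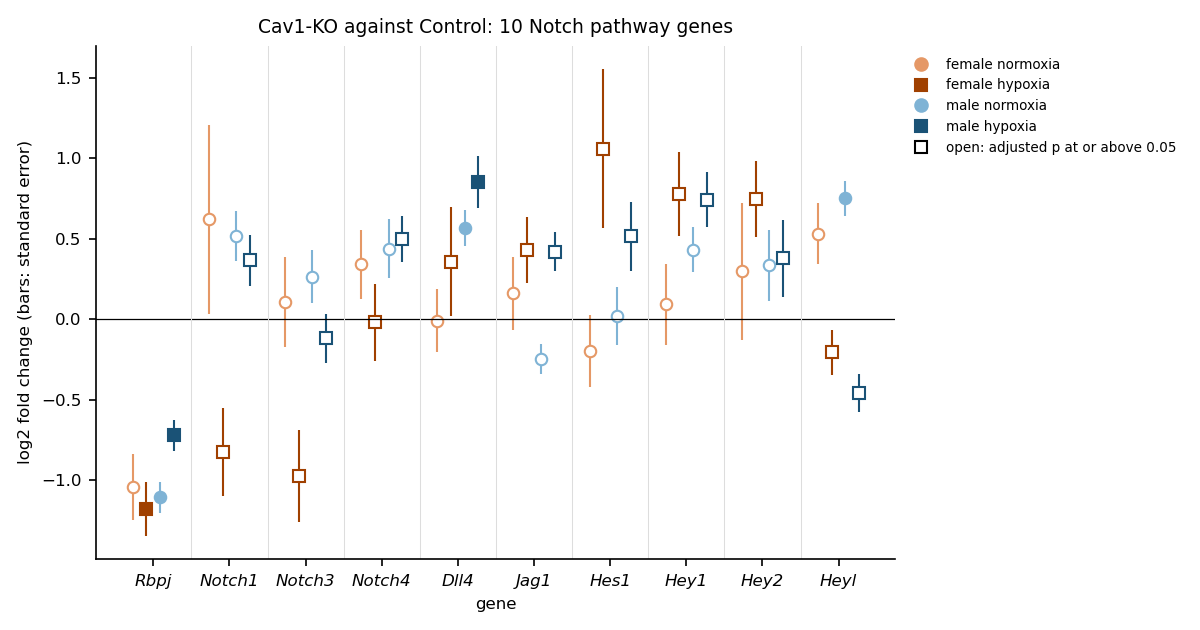
Log2 fold change of Cav1-KO against Control for the 10 members in 4 strata of sex and oxygen level; bars are standard errors of the fit and filled symbols passed an adjusted p of 0.05 in edgeR. Rbpj lies between -1.18 and -0.72 in all 4, and Heyl lies above 0 in both normoxic strata and below 0 in both hypoxic ones.

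Markers of other cell types moved with these values. In Cav1-KO against Control in normoxia, 6 of 6 airway epithelial markers were lower (median log2 fold change -1.26), with a summed level of 15173 to 19254 CPM in Cav1-KO and 21524 to 66040 CPM in Control. 4 of 8 arterial endothelial markers were higher, with a summed level of 3229 to 3447 CPM in Cav1-KO and 1780 to 2545 CPM in Control, and 3 of 10 general endothelial markers were higher. 3 of 10 mural markers, of pericytes and smooth muscle, were lower. Of 8 leukocyte markers 1 was higher and 3 were lower, with a summed level of 5205 to 6742 CPM in Cav1-KO and 3547 to 5335 CPM in Control, and 2 of 8 alveolar epithelial markers were higher. No marker of these lists was at 0 in any library, and their part in the values of Dll4, Heyl and Rbpj was not tested.

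In hypoxia 4 of the 10 members passed in Cav1-KO against Control, against 14.7% of all genes, and again no ligand or target fell together with Rbpj except Heyl. None had an absolute log2 fold change above 1 at that threshold, against 4.14% of all genes. 8 had an unadjusted p under 0.05. No receptor passed over both sexes. Notch3 was at 99.5 to 109 CPM in female Cav1-KO and 117 to 250 CPM in female Control, without overlap, and its male ranges overlapped. Over the alternatives its log2 fold change for both sexes ran from -0.69 to -0.21, and it passed in some. Notch4 was at 187 to 267 CPM in male Cav1-KO and 149 to 168 CPM in male Control, without overlap, and its female ranges overlapped. Notch1 ranges overlapped in both sexes. The median log2 fold change of the 10 was 0.33, beside 0.01 over all genes. All 6 hypoxic Cav1-KO libraries were on the western blot list, against 4 of the 6 Control libraries, while all 6 male libraries of both genotypes were. Markers moved here too, with 3 of 8 alveolar epithelial, 2 of 10 mural, 2 of 10 endothelial, 2 of 8 leukocyte, 1 of 8 arterial endothelial and 1 of 6 airway epithelial markers lower and none higher. Summed mural levels were 784 to 1052 CPM in Cav1-KO and 1130 to 1423 CPM in Control, and their part in the values of Heyl, Hey1 and Jag1 was not tested.

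Hey1 held 101, 62.5 and 62.9 CPM in hypoxic female Control and 154, 141 and 93.9 CPM in female Cav1-KO libraries. In hypoxic males it held 82.3, 84.1 and 99.7 CPM in Control and 128, 128 and 189 CPM in Cav1-KO, without overlap. Over both sexes Hey1 was higher by a log2 fold change of 0.76 ± 0.17 (adjusted p = 0.0168). In males alone the value was 0.74 (adjusted p = 0.0753).

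Hes1 held 139, 37.3 and 42.1 CPM in hypoxic female Control and 169, 168 and 119 CPM in female Cav1-KO libraries, overlapping ranges. In hypoxic males it held 130.2, 75.0 and 138 CPM in Control and 182, 148 and 162 CPM in Cav1-KO, without overlap. Over both sexes the log2 fold change was 0.79 ± 0.29 and did not pass (adjusted p = 0.0844). Without female Control replicate 1, the listed one, it was 1.22 (adjusted p = 0.000189), and with the list term it was 0.49 (adjusted p = 0.0815).

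Jag1 was higher over both sexes by 0.43 ± 0.12 on the log2 scale (adjusted p = 0.0398), with 93.0 to 120.1 CPM in Cav1-KO and 59.5 to 102 CPM in Control, and without any 1 of 11 of the 12 libraries the adjusted p was above 0.05, at up to 0.0986. Dll4 was higher in hypoxic males, at 83.1, 120.2 and 91.7 CPM against 57.2, 46.2 and 59.4 CPM in Control, without overlap (log2 fold change 0.85 ± 0.16, adjusted p = 0.0468, with 2 of 10 members and 1.6% of all genes called), and 4 of the 6 libraries, left out in turn, took the adjusted p to at most 0.155. Without the Control male whose Xist went against the label it was 0.76 (adjusted p = 0.0441). Over both sexes Dll4 did not pass (0.61 ± 0.20, adjusted p = 0.0631).

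Heyl had the opposite sign in hypoxia. Male Control libraries held 58.9, 47.6 and 52.8 CPM and male Cav1-KO libraries 41.0, 39.9 and 35.1 CPM, without overlap, and female ones held 43.3, 51.1 and 53.4 CPM against 40.2, 46.2 and 41.9 CPM. Over both sexes it was lower by a log2 fold change of -0.33 ± 0.09 (adjusted p = 0.0331), and without any 1 of 9 of the 12 libraries the adjusted p was above 0.05, at up to 0.0906.

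The change of the genotype effect between oxygen levels was tested directly. The log2 fold change of Cav1-KO against Control was lower in hypoxia than in normoxia by 0.99 for Heyl (-0.99 ± 0.13, adjusted p = 0.00178) and for Notch3 (-0.75 ± 0.26, adjusted p = 0.0448). These were the 2 members called, against 20.2% of all genes. For Rbpj the change was 0.11 ± 0.14 (adjusted p = 0.589).

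The value for Heyl was -1.20 with male libraries alone (adjusted p = 0.00721) and -0.75 with female libraries alone (adjusted p = 0.146). Among these males the list is the same for both genotypes at each oxygen level. Every hypoxic and no normoxic one was listed, however, so oxygen and list cannot be told apart in the male value. The male value includes the hypoxic Control library whose Xist went against the label. Without it the value over both sexes was -1.03 (adjusted p = 0.000321). With a term for the list in 1 fit over all 34 libraries it was -0.89 (adjusted p = 0.00577). That term rests on female Control and Cav1-RC animals, so it cannot separate a list effect particular to Cav1-KO or to males. For Notch3 the value was -0.38 with males alone (adjusted p = 0.371) and -0.28 with the list term (adjusted p = 0.416). Over all alternatives it ran from -1.10 to -0.28. Without any 1 of 18 of the 23 libraries, the adjusted p of Notch3 was above 0.05, at up to 0.0913. In Cav1-KO lungs the airway epithelial markers also changed between oxygen levels, with 5 of 6 of them higher in this comparison. There 3 of 8 arterial endothelial, 3 of 8 alveolar epithelial and 2 of 10 endothelial markers were lower, and 1 endothelial marker was higher. Of 10 mural markers 1 was lower and none higher (median -0.07), 1 of 8 leukocyte markers was lower and 1 of 10 cardiac muscle markers was higher. The part of these lists was not tested.

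**Figure D3:**
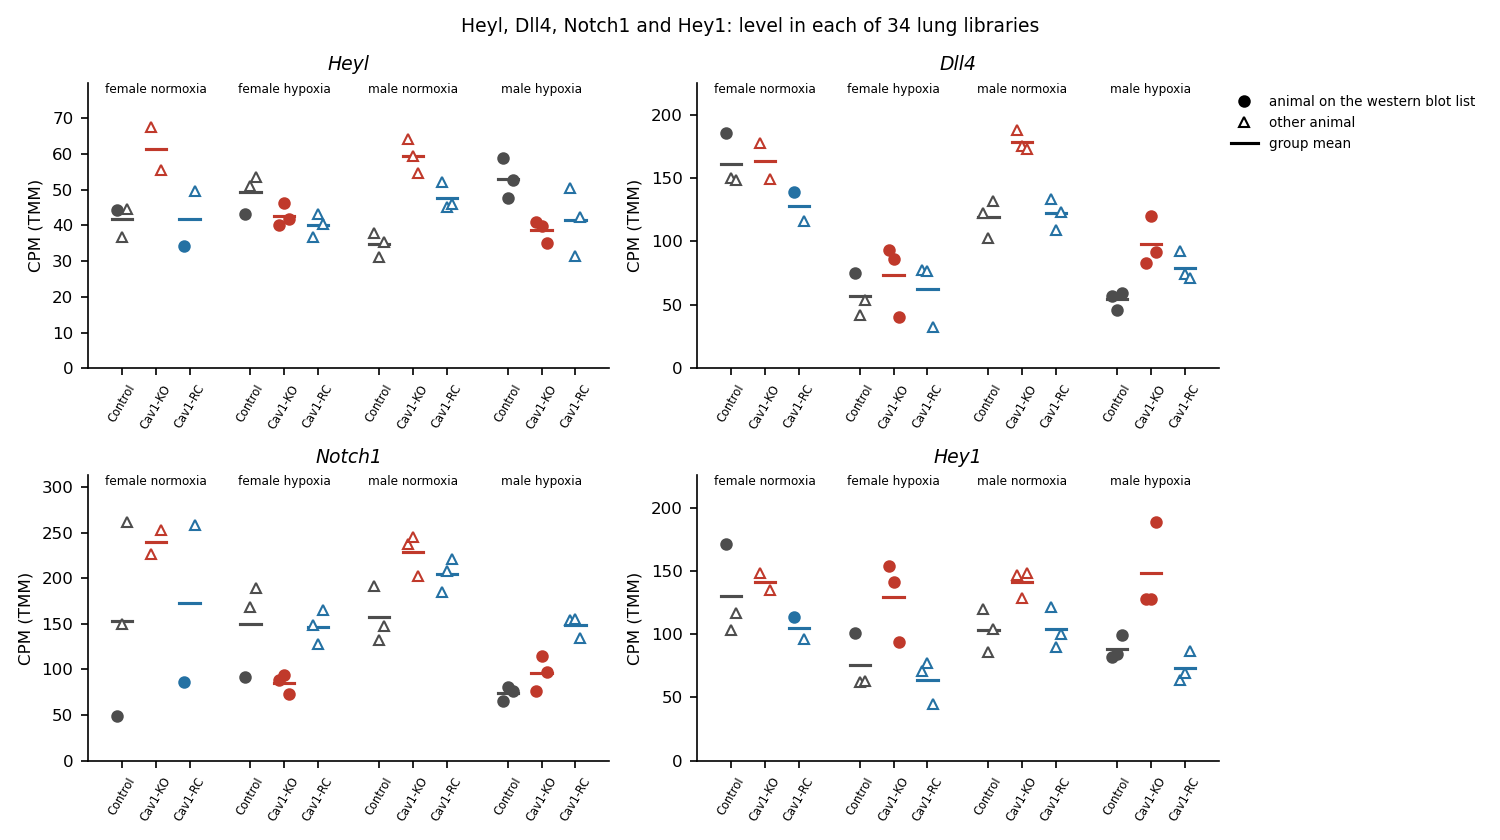
Levels of Heyl, Dll4, Notch1 and Hey1 in CPM on linear axes, with 1 point per library and lines at group means; filled circles are animals on the western blot list and open triangles the others. Heyl is highest in normoxic Cav1-KO lungs, at 54.7 to 67.6 CPM, Dll4 is lower in hypoxia in each group, and Notch1 lies at 48.7 to 114 CPM in the 12 listed libraries and at 128 to 262 CPM in the other 22.

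The members tracked the western blot list to different degrees. Notch1 stood at 48.7 to 114 CPM in the 12 listed and at 128 to 262 CPM in the 22 other libraries, without overlap. Hey2 stood at 6.02 to 16.4 CPM in the listed and 3.52 to 9.36 CPM in the others, with medians of 11.3 and 5.68 CPM, and Hes1 had medians of 143 and 85.6 CPM. Heyl had medians of 42.6 and 45.5 CPM. Rbpj had medians of 39.0 and 61.7 CPM. Within Control, listed animals held 46.7 to 54.1 CPM of Rbpj and the others 58.9 to 74.7 CPM, without overlap. The listed Cav1-RC library held 55.1 CPM, and the lowest of the other Cav1-RC libraries 57.7 CPM. In Cav1-KO the listed and other ranges of Rbpj were 26.5 to 31.2 and 30.8 to 32.3 CPM. In Cav1-KO lungs, where the list and hypoxia coincide, the change of any member with oxygen, Dll4, Heyl and Hey2 included, cannot be told apart from it.

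Dll4 was lower in hypoxia. Its levels in normoxia and hypoxia did not overlap in any sex of any genotype labelled Control or Cav1-KO: 149 to 185 against 42.3 to 74.9 CPM in female Control, 103 to 132 against 46.2 to 59.4 CPM in male Control, 149 to 178 against 40.6 to 93.4 CPM in female Cav1-KO, and 173 to 188 against 83.1 to 120.2 CPM in male Cav1-KO. The libraries labelled Cav1-RC held 109 to 139 CPM in normoxia and 32.6 to 92.5 CPM in hypoxia, also without overlap.

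Over both sexes the log2 fold change of Dll4 in hypoxia against normoxia was -1.33 ± 0.15 in Control (adjusted p = 0.000887, 2.51-fold lower, where 1 of 10 members and 1.44% of all genes passed). It was -1.02 ± 0.18 in Cav1-KO (adjusted p = 0.000446) and -0.83 ± 0.20 in libraries labelled Cav1-RC (adjusted p = 0.0565), where 0 of 10 members passed in edgeR, 2 had an unadjusted p under 0.05, DESeq2 called 2, and 2.17% of all genes passed. With the list term, the values were -1.53, -1.43 and -0.73, with adjusted p of 2.66e-05, 0.0111 and 0.0236. Among female Control animals not on the list, Dll4 was at 150.3 and 149 CPM in normoxia and 42.3 and 54.1 CPM in hypoxia (log2 fold change -1.69, adjusted p = 0.00338). The summed arterial endothelial markers went the other way from Dll4 in Control, from 1780 to 2545 CPM in normoxia to 2722 to 3484 CPM in hypoxia, without overlap. By gene 1 of 8 of them was higher and 1 lower, and 2 of 10 mural, 2 of 8 leukocyte and 1 of 10 endothelial markers were higher. Their part was not tested.

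In that unlisted female Control comparison, 2 animals against 2, Hes1 (-1.07, adjusted p = 0.00539) and Hey1 (-0.86, adjusted p = 0.00811) were also lower in hypoxia, and Notch3 was higher (0.75, adjusted p = 0.048). The share of all genes called in this fit is not given here, so these calls cannot be set against it. In these libraries the summed mural markers were at 760 to 876 CPM in normoxia and 1152 to 1158 CPM in hypoxia. Arterial endothelial, general endothelial, leukocyte and alveolar epithelial sums were also higher in hypoxia without overlap. The arterial list, for example, was at 1925 to 2182 against 3248 to 3484 CPM, and the general endothelial list at 3646 to 4583 against 4603 to 5102 CPM. The part of these lists was not tested. With the 1 listed animal of each group kept in, 0 of 10 members passed in edgeR, 2 had an unadjusted p under 0.05 and DESeq2 called 1, and 0.0175% of all genes passed. Hes1 stood at 139 CPM in the listed hypoxic female Control and at 37.3 and 42.1 CPM in the other 2.

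In male Control lungs, where all 3 hypoxic and none of the normoxic animals were listed, 5 of 10 members passed, against 16% of all genes. Rbpj was lower (-0.49 ± 0.11, adjusted p = 0.0291), as were Notch1 (-1.10, adjusted p = 0.0101) and Dll4 (-1.15, adjusted p = 0.00661), and Hey2 (1.08, adjusted p = 0.034) and Heyl (0.59, adjusted p = 0.0247) were higher. Without the hypoxic library whose Xist went against the label, Rbpj was at -0.44 and did not pass (adjusted p = 0.0515). Over all alternatives the male value of Rbpj ran from -0.55 to -0.08. In female Control the log2 fold change of Rbpj was -0.00 (adjusted p = 0.999). Hypoxia and the list cannot be told apart in these males. All 9 cardiac muscle markers tested were lower there (median log2 fold change -2.35), and 3 of 10 mural, 2 of 8 leukocyte and 1 of 6 airway epithelial markers were higher. Of 8 arterial endothelial markers 4 were higher and 1 lower, and of 10 endothelial markers 2 were higher and 2 lower. Their part was not tested.

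In Cav1-KO lungs 7 of 10 members passed in hypoxia against normoxia, against 61.7% of all genes, a share near that background. Notch1 (-1.38 ± 0.11), Dll4 (-1.02 ± 0.18), Heyl (-0.58 ± 0.08) and Notch3 (-0.47 ± 0.07) were lower, with adjusted p of 1.23e-06, 0.000446, 5.24e-05 and 0.000104. Hey2 (1.01 ± 0.19), Hes1 (0.81 ± 0.10) and Jag1 (0.57 ± 0.07) were higher, with adjusted p of 0.000564, 3.57e-05 and 4.69e-05. With the list term the signs of Notch1 (0.13), Notch3 (0.42) and Hes1 (-0.43) turned and only Dll4 passed. The list effect in that fit comes from female Control and Cav1-RC groups, since every hypoxic and no normoxic Cav1-KO animal was listed. By sex, 7 of 10 passed in females and in males, against 38.2% and 55.1% of all genes. Rbpj itself was at 30.8 to 32.3 CPM in normoxic and 26.5 to 31.2 CPM in hypoxic Cav1-KO libraries (-0.12 ± 0.06, adjusted p = 0.103). In the same comparison 6 of 6 airway epithelial markers were higher, 5 of 10 mural markers were higher and 2 lower, and 5 of 9 tested cardiac muscle markers were lower. Of 8 arterial endothelial markers 3 were higher and 4 lower, of 10 endothelial 4 and 4, of 8 alveolar epithelial 1 and 4, and of 8 leukocyte 2 and 2. Their part was not tested.

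**Figure D4:**
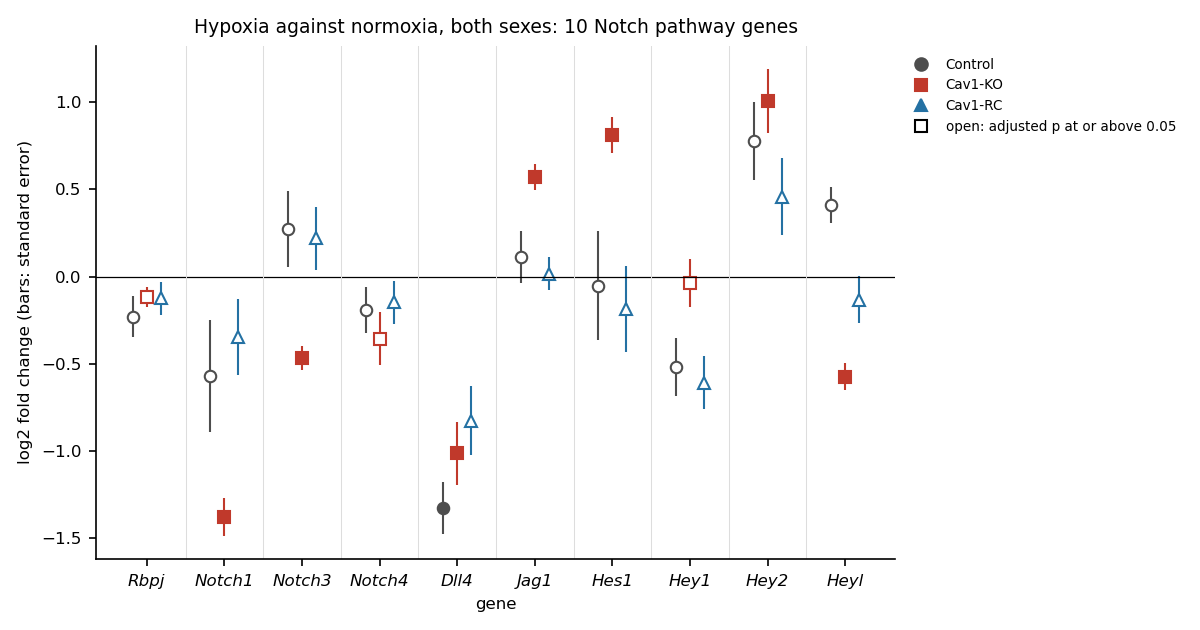
Log2 fold change of hypoxia against normoxia over both sexes for the 10 members in each genotype; bars are standard errors of the fit and filled symbols passed an adjusted p of 0.05 in edgeR. Dll4 lies between -1.33 and -0.83 in the 3 genotypes; in Cav1-KO hypoxia coincides with the western blot list.

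Libraries labelled Cav1-RC were compared with Cav1-KO to ask which members differ between these lines. The lines came from different sources, so line and reconstitution cannot be told apart, at either oxygen level. The Cav1-KO libraries are the same as in the comparison with Control. In normoxia 4 of 10 members passed, against 9.38% of all genes. Rbpj was higher, and Dll4 (-0.44 ± 0.09, adjusted p = 0.014), Hey1 (-0.42 ± 0.10, adjusted p = 0.0236) and Heyl (-0.42 ± 0.11, adjusted p = 0.0423) were lower. The 5 libraries labelled Cav1-RC held 109 to 139 CPM of Dll4, 90.1 to 122 CPM of Hey1 and 34.3 to 52.2 CPM of Heyl, and the 5 Cav1-KO libraries held 149 to 188, 129 to 149 and 54.7 to 67.6 CPM, without overlap. Without the 2 libraries labelled male whose Xist went against the label, 1 member passed, and left-out libraries took the adjusted p above 0.05 in 1 of 10 cases for Dll4, 6 of 10 for Hey1 and 8 of 10 for Heyl. By sex, 4 members passed in males, against 12.5% of all genes, and 0 in females, against 0.1%, where 1 had an unadjusted p under 0.05 and DESeq2 called 1. The arterial endothelial markers had a summed level of 2225 to 2930 CPM in libraries labelled Cav1-RC and 3229 to 3447 CPM in Cav1-KO, and 3 of 6 airway epithelial and 3 of 8 leukocyte markers were higher. General endothelial sums overlapped, at 3129 to 4286 CPM in libraries labelled Cav1-RC and 4216 to 4533 CPM in Cav1-KO. The part of these markers in the values was not tested.

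In hypoxia 7 of 10 members passed between libraries labelled Cav1-RC and Cav1-KO, against 52.6% of all genes. Besides Rbpj, Notch1 (0.72) and Notch3 (0.62) were higher, and Hey1 (-1.01), Hey2 (-0.91), Hes1 (-0.73) and Jag1 (-0.49) were lower. All 6 Cav1-KO libraries here were listed and none of the 6 labelled Cav1-RC was, so genotype and list cannot be told apart. Markers moved in this comparison as well, with 5 of 8 leukocyte, 5 of 10 cardiac muscle and 3 of 8 alveolar epithelial markers higher and 5 of 10 mural markers lower. The others were mixed, with 2 higher and 4 lower of 10 endothelial, 2 higher and 2 lower of 8 arterial endothelial, and 1 higher and 4 lower of 6 airway epithelial markers. Their part was not tested. With the list term Notch1 (-0.80), Notch3 (-0.28) and Hes1 (0.51) had the opposite sign. By sex, 6 members passed in females and 7 in males, against 20.8% and 44.5% of all genes.

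Against Control, 0 of 10 members passed in libraries labelled Cav1-RC in normoxia, against 3.33% of all genes, and 0 in hypoxia, against 9.06%. In edgeR 0 and 2 of them had an unadjusted p under 0.05, and DESeq2 called 0 and 1. In normoxia the largest differences were 0.28 ± 0.39 for Notch1 and 0.23 ± 0.12 for Heyl. In hypoxia Notch1 was at 0.51 ± 0.16 (adjusted p = 0.064). There 4 of the 6 Control libraries, with all 3 males, and none of the 6 labelled Cav1-RC were listed, so list and genotype cannot be told apart in males. With the list term 2 members passed, Hes1 (1.00, adjusted p = 0.0161) and Heyl (-0.45, adjusted p = 0.0326). In this comparison, without that term, 5 of 10 mural markers were lower (median -0.56), 1 of 8 arterial endothelial and 1 of 10 endothelial markers were lower, and 7 of 10 cardiac muscle and 2 of 8 leukocyte markers were higher. Their part was not tested.

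A further 59 genes of the pathway, listed by role, were counted beside the 10. In Cav1-KO against Control in normoxia 56 were tested, 5 were higher and 4 lower, against 13.2% of all genes called, and their median log2 fold change was 0.20 beside -0.03 over all genes. Gja4, a connexin of arterial endothelium (0.70, adjusted p = 0.0192), Unc5b, a netrin receptor of endothelial tip cells (0.60, adjusted p = 0.0146), and Hdac1, a histone deacetylase of repressor complexes (1.04, adjusted p = 7.39e-05), led the higher ones. Neurl1a (-0.94, adjusted p = 0.00131) and Neurl1b (-0.64, adjusted p = 0.0093), ubiquitin ligases that act on ligands, and Dtx1, a ubiquitin ligase of the Deltex family (-0.54, adjusted p = 0.0356), led the lower ones.

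Hdac1 is uncertain for the same reason as Rbpj. The processed pseudogene Gm10093, named here after its values were seen, shares 86.1% of its stretches of 31 bases with Hdac1 transcripts, and it took 3.00% to 33.2% of their joint counts in Control and 2.48% to 6.74% in Cav1-KO libraries.

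In hypoxia 56 of the 59 were tested in the same comparison, 3 were higher and 3 lower, against 14.7% of all genes, and the median was -0.01 beside 0.01 over all genes. Dll1, a further ligand (1.47, adjusted p = 0.000849), Hdac2 (0.38, adjusted p = 0.0191) and Hdac1 (0.81, adjusted p = 0.0299) were higher. The lower ones included the ubiquitin ligase gene Dtx3l (-0.59, adjusted p = 0.0277) and Snw1, a cofactor of Rbpj (-0.97, adjusted p = 0.0285). By sex, 6 higher and 2 lower were called in normoxic males, 2 higher in hypoxic males, 1 higher in hypoxic females and 0 in normoxic females, against 11.4%, 1.6%, 0.808% and 0.122% of all genes.

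Promoters were searched for GTGGGAA on both strands, the core of the Rbpj binding sequence, in RefSeq windows of 300 bases (250 before and 50 after the start, GRCm38.p6). Windows for 7 of the 10 members were in the table, not those of Hes1, Hey1 and Heyl. Hey2 alone of the 7 held the letters, at 2 places, and 6.38% of the 32851 windows in the table did. The 250 bases before the RefSeq start of Hey2, at chr10:30842784-30843033 on the minus strand, are shown 5′ to 3′ with the matches in capitals. The first match, 207 bases before the start, is on the other strand, and the second begins 4 bases before the start and runs past the end of the line.
Hey2 promoter: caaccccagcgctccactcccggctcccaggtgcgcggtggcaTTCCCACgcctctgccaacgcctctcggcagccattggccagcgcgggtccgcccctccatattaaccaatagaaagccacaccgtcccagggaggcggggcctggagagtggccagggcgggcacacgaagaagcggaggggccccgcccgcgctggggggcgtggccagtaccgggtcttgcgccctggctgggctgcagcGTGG

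Hey2 levels beside this sequence were 3.52 to 7.44 CPM in normoxic Control and 4.47 to 8.73 CPM in normoxic Cav1-KO libraries, overlapping ranges. In hypoxia they were 6.20 to 11.7 and 9.60 to 16.4 CPM, also overlapping (log2 fold change 0.56 ± 0.18, adjusted p = 0.0514).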

How the data were processed

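Whole-lung RNA of 34 mice in 12 groups was analysed, and 1 further library, whose identity the labels mark as uncertain and only possibly female Cav1-KO in normoxia, was used in no comparison. According to the methods, poly-A RNA was made into directional libraries. The authors deposited raw counts of read pairs per gene, made with HISAT2 2.0.5 on mm10 and featureCounts 1.5.0-p3 at its default settings, which count without strand, and FPKM, which the authors made per gene length and library total with 1 further factor per library. Reads shared by near-identical copies can be placed on either, and reads of overlapping antisense partners cannot be told apart.

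Counts were tested with edgeR 4.0.16 in R 4.3.3 (TMM, filterByExpr, glmQLFit, glmQLFTest) on the groups compared, with sex as a factor where both sexes were used, and Benjamini-Hochberg adjustment over all genes. A gene was called at an adjusted p under 0.05. Each standard error was obtained from the log2 fold change and its F statistic. All p-values measure the spread between these animals.

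The members and lists were chosen with earlier results of these data known. Named genes were the 10 members, Cav1, genes named Rbpj-ps, up to 3 genes per direction of the pathway list with the smallest adjusted p among those called, 3 neighbours and the 5 genes most like Rbpj. 1 gene that this rule names is not reported here. Alternatives were DESeq2 size factors, DESeq2 1.42.0, no filter, 1 fit over all libraries, a term for the western blot list, limma 3.58.1 on log2(FPKM + 1) and log2(FPKM + 0.1), a replicate block and each library left out. The fit was tested on simulated data. Leaving out listed animals or using 1 sex alone was chosen after seeing the data.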

Additional observations from a re-analysis of the deposited data

Results flagged for a closer look

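The Cav1-KO effect on Heyl differed between hypoxia and normoxia (hypoxia minus normoxia, log2 -0.99, edgeR interaction test, adjusted p = 0.00178). Heyl was higher in Cav1-KO than in Control in normoxia (0.64) and lower in hypoxia (-0.33), where without any 1 of 9 of the 12 libraries the adjusted p was above 0.05. The 2 members called for this difference stand beside 20.2% of all genes called. In Cav1-KO every hypoxic and no normoxic library was on the western blot list, so oxygen and list cannot be told apart there for either member. The genotype effect on Notch3 also differed between oxygen levels (log2 -0.75, adjusted p = 0.0448), being 0.19 in normoxia and -0.55 in hypoxia, where neither value passed alone. For Notch3 the difference was -0.38 with males alone (adjusted p = 0.371) and -0.28 with a term for the western blot list (adjusted p = 0.416), and without any 1 of 18 of the 23 libraries its adjusted p was above 0.05, at up to 0.0913. Over all alternatives the Notch3 difference ran from -1.10 to -0.28. Groups of 3 or fewer libraries were not searched for single outlying values.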

How the results depend on the processing

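Counts of members called are given in the order female normoxia, male normoxia, female hypoxia, male hypoxia, both sexes in normoxia and both sexes in hypoxia for Cav1-KO against Control, which was 0, 3, 1, 2, 2 and 4. They were 1, 5, 4, 6, 2 and 8 by DESeq2, 1, 5, 2, 5, 2 and 7 with no filter on low counts, and 0, 1, 1, 0, 1 and 0 with an absolute log2 fold change above 1. DESeq2 size factors in place of TMM left every count of members called and every side of the threshold as it was. In 1 fit over all 34 libraries 1 member was called in normoxic females, 5 in hypoxic females, 1 in hypoxic males and 8 in hypoxia over both sexes, and with the list term 1 in normoxic females and 4 in hypoxic males. limma on log2(FPKM + 1) and log2(FPKM + 0.1) called 0 in both sexes apart in hypoxia, and with no filter 2 over both sexes. For libraries labelled Cav1-RC against Cav1-KO, DESeq2, no filter, 1 fit, the list term and leaving out listed animals each called 1 in normoxic females. In normoxic males 1 fit, the list term and the fold threshold called 1 each, and limma with no filter 2. In hypoxic females these were 3, 1, 2 and 3, in hypoxic males 4, 1 and 2 for the first 3, over both sexes in normoxia 1 fit called 2, the fold threshold 1 and limma with no filter 2, and in hypoxia the list term and the fold threshold called 2 each. Against Control in hypoxia DESeq2 and 1 fit called 1 and the list term 2. For hypoxia against normoxia, female Control had 1 by DESeq2, no filter and 1 fit, 3 with the list term and 4 without listed animals. Male Control had 2 with the list term, 3 with the fold threshold and 2 by limma with no filter, and female Cav1-KO 4, 1 and 2 by 1 fit, list term and fold threshold. Male Cav1-KO had 0 with the list term and 2 with the fold threshold, and both sexes of Cav1-KO 1 and 3. Both sexes of Control had 3, 3 and 5 by DESeq2, 1 fit and list term, and libraries labelled Cav1-RC 2 by DESeq2, no filter, 1 fit and list term and 1 without listed animals. The oxygen difference had 1 by limma and the list term and 0 with females alone or the fold threshold.

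In normoxic females Rbpj passed between Cav1-KO and Control at -1.04 by DESeq2, -1.03 with no filter, -1.02 in 1 fit, -1.14 with the list term and -1.13 without the listed animal. In hypoxia it did not pass by limma, at -0.89 and -1.12 in females and -0.52 and -0.68 in males with 1 and 0.1 added. Leaving out single libraries gave Rbpj -1.13 to -0.90 in normoxic females, -1.32 to -1.11 in hypoxic females and -0.75 to -0.69 in hypoxic males. It gave 0 to 1, 2 to 8, 0 to 8, 0 to 3, 2 to 4 and 2 to 9 members for Cav1-KO against Control in the order above. For Cav1-RC against Cav1-KO it gave 0 to 6 in normoxic females, 2 to 5 in normoxic males, 2 to 6 in hypoxic females and 1 to 8 over both sexes in normoxia, and 0 to 1 against Control in hypoxia. For hypoxia against normoxia it gave 1 to 5 in male Control, 2 to 7 in female Cav1-KO, 1 to 3 in Control and 0 to 1 in Cav1-RC over both sexes. The sex difference in hypoxia had 0 to 4 and the oxygen difference 1 to 6.

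With the list term these signs turned. Notch1, Notch3 and Hes1 were at -0.72, -0.21 and 0.32 in females and -0.88, -0.35 and 0.69 in males for Cav1-RC against Cav1-KO in hypoxia, and at -0.80, -0.28 and 0.51 over both sexes. In hypoxia against normoxia in Cav1-KO they were at 0.012, 0.48 and -0.35 in females, 0.25, 0.36 and -0.50 in males and 0.13, 0.42 and -0.43 over both, and Notch1 was at 0.42 in male Control. For Cav1-KO against Control, Jag1 (0.0023) and Hes1 (0.14) in normoxia and Notch1 (0.30) in hypoxia turned. With single libraries left out Jag1 ranged from -0.11 to 0.045, turning without female Control replicate 2, and Hes1 from -0.18 to 0.019, turning without female Control replicate 1, the listed animal. The cause was not tested.

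Replicate numbers did not pair the samples, since in 0 of 12 comparisons every same-numbered pair correlated above 0.1. The replicate block gave 1 member in normoxic females and 0 in hypoxic females and males for Cav1-KO against Control, and 1 for hypoxia in female Control. In hypoxia over both sexes Hes1 (0.89, edgeR adjusted p = 0.0419) and Hey2 (0.58, adjusted p = 0.0298) passed between Cav1-KO and Control under the block, and also by DESeq2. Rbpj under the block was -1.16 in hypoxic females (edgeR adjusted p = 0.103) and -0.72 in hypoxic males (adjusted p = 0.0508). Calls also lost under it were Dll4 in hypoxic males (adjusted p = 0.0897), Rbpj with hypoxia in male Control (adjusted p = 0.0518) and Heyl in Cav1-RC against Cav1-KO in normoxia (adjusted p = 0.0789), and Dll4 with hypoxia in female Control was gained (-1.57, adjusted p = 0.0345).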

Other observations

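Between libraries labelled Cav1-RC and Cav1-KO in normoxia, 1 of 56 tested genes of the wider pathway list was higher and 2 were lower, against 9.38% of all genes called. Tle1, a corepressor, was higher (log2 fold change 0.33, adjusted p = 0.0487), and Gja4, a connexin of arterial endothelium (-0.73, adjusted p = 0.00344), and Adam17, a protease that can cleave Notch receptors (-0.60, adjusted p = 0.00503), were lower. Against Control, Hdac1 (1.04) and Tle1 (0.58) were higher in normoxia in libraries labelled Cav1-RC, against 3.33% of all genes. In hypoxia 4 were higher and 4 lower, against 9.06% of all genes, led by Nrarp, a Notch target that limits the pathway (1.05, adjusted p = 0.00525), Dtx3l (0.91) and Dll1 (0.95), and by Neurl1b (-0.73), Psenen (-0.42) and Kat2a (-0.42).

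In hypoxia against normoxia, 2 of the 56 were higher and 2 lower in Control, against 1.44% of all genes. The ligand gene Jag2 (1.16, adjusted p = 0.00121) and Unc5b (0.75, adjusted p = 0.0434) were higher, and Efnb2, which marks arteries (-0.98, adjusted p = 0.0117), and Neurl1b (-0.67, adjusted p = 0.0361) were lower. In libraries labelled Cav1-RC 4 were lower, against 2.17% of all genes, led by Efnb2 (-0.83), Tle1 (-0.65) and Neurl1b (-0.87). In Cav1-KO, where hypoxia cannot be told apart from the western blot list, 15 were higher, led by Psenen (0.66), Jag2 (1.04) and Hdac2 (0.48), and 28 lower, among them Dtx3l (-1.32) and Snw1 (-1.80), against 61.7% of all genes called. For libraries labelled Cav1-RC against Cav1-KO in hypoxia 14 were higher, among them Dtx3l (1.48) and Snw1 (1.70), and 18 lower, led by Hdac2 (-0.67), Kat2a (-0.59) and Psenen (-0.49), against 52.6% of all genes. Genotype and list cannot be told apart there. The change of the Cav1-KO effect between oxygen levels was higher for 3, led by Neurl1a (1.16), Psen2 (0.67) and Hdac2 (0.39), and lower for 12, among them Aph1a (-0.78) and Unc5b (-0.78), of 57 tested and against 20.2% of all genes.

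The library whose identity the labels leave uncertain, as possibly a normoxic female Cav1-KO, had 2.32 FPKM of Rbpj, 1.10 FPKM of Rbpj-ps3 and 1.34 FPKM of Cav1. It had 94.8 FPKM of Hes1, 48.7 of Hey1, 4.10 of Hey2, 7.29 of Heyl, 22.3 of Dll4, 16.1 of Jag1, 4.94 of Notch1, 13.3 of Notch3 and 28.6 of Notch4. Its animal number is also on the western blot list, which gives that animal as a normoxic female knockout. Beside it, Cav1-KO libraries held 6.51 to 9.28 FPKM of Rbpj-ps3 and 14.0 to 17.4 FPKM of Notch1 in normoxia, and 0.938 to 2.46 and 4.95 to 7.96 FPKM in hypoxia, where all were listed.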
